A study of Mus musculus with 8 samples.

Results

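The Notch genes described here are 10 members of the pathway: the 4 mouse receptors Notch1, Notch2, Notch3 and Notch4, the ligands Jag1, Jag2, Dll1 and Dll4, the non-canonical ligand Dner, and the target gene Hes1. They were chosen by name, as all probes of an Agilent mouse expression array whose gene name is one of these or a synonym, which gave 13 probes of the 55653 kept and 10 genes of the 23607 named on the array. The choice was made with results of the same arrays known, so the levels below are a description of these genes and carry no test.

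RNA was measured from lung fibroblasts that the study sorted into the types A, B and C, and from pulmonary single cells (Pu, the lung cell suspension before sorting), with 2 samples per group and 1 array per sample. Every sample held 50000 cells freshly isolated from the lungs of adult female C57BL/6 mice aged 12 to 16 weeks, and the labels name no further genotype or treatment in any group. The fibroblasts were sorted with antibodies against the lineage markers E-Cadherin, TER119, Lyve-1, CD146, CD45 and CD31, and with antibodies against Thy-1, Sca-1 and Pdgfra. No label says what combination of antigens defined a type or how many mice went into a sample. Levels are scaled log2 signals, in which 0 is the 75th percentile of that array's probes, and a value counts as above background where the scanner software marked the spot so.

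The 8 arrays had 54.6% to 68.7% of spots above background and no saturated spot, and the correlation between the 2 arrays of a group over the tested genes ran from 0.915 (Pu) to 0.985 (A and B), with C at 0.947. The 8 listed fibroblast markers had a summed level (linear signal, 1 being the array's 75th percentile) of 487 to 978 in fibroblasts and 55.7 to 64.6 in Pu. The 10 endothelial markers summed to 4.55 to 5.55 in fibroblasts, against 102 to 137 in Pu, and the 11 epithelial markers to 2.41 to 17.0 in fibroblasts, against 1098 to 1193 in Pu. The 10 leukocyte markers summed to 132 to 224 in fibroblasts and 317 to 632 in Pu, and the 10 mural cell markers to 382 to 440 in fibroblasts and 459 to 511 in Pu. A linear sum follows the brightest genes of its list. Gene by gene, the median log2 difference of fibroblasts minus Pu was -4.42 over the leukocyte list and -0.65 over the mural list. Over all genes it was 0.10. Rgs5 (pericytes), Cdh1, Foxj1 and Krt8 (epithelium) and Ms4a1 and Laptm5 (leukocytes) were above background on no fibroblast array. The lists hold genes of sort antigens: Pecam1 (CD31, endothelial), Mcam (CD146, mural), Cdh1 (E-Cadherin, epithelial), Ptprc (CD45, leukocyte) and Pdgfra (fibroblast). The sort selected on the proteins of these genes, so their levels are no independent evidence on the cell types. On each fibroblast array 9 of the 10 mural genes were above background. Of the mural list, 8 genes were on the lower side in fibroblasts and 2 on the higher side. Kcnj8, of the higher side, averaged 1.21 in A-type, 0.64 in B-type and 0.75 in C-type cells, against -2.88 in Pu. Of the antigens used in the sort, Pdgfra averaged 3.79 in A-type, 3.56 in B-type and 4.35 in C-type cells, against 1.71 in Pu. Ly6a (Sca-1) averaged 6.22 in A-type, 6.71 in B-type and 1.79 in C-type cells, against 4.97 in Pu, and Thy1 averaged -0.24 in A-type, 4.82 in B-type and 0.17 in C-type cells, against 2.85 in Pu. The 10 early response genes, which dissociation and sorting can induce, summed to 1186 to 1329 in fibroblasts and 337 to 478 in Pu.

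**Figure D1:**
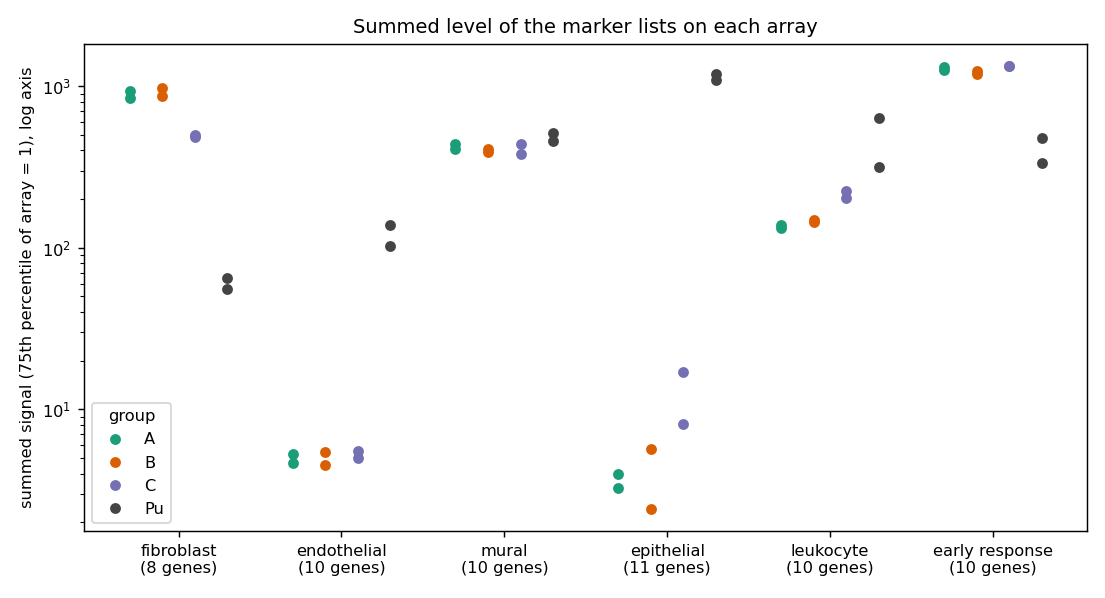
Summed linear signal of each marker list on each of the 8 arrays, on a log axis, with A, B and C left of Pu. Endothelial markers lie at 4.55 to 5.55 on the 6 fibroblast arrays and at 102 to 137 on the 2 Pu arrays, and fibroblast markers lie the other way round.

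Notch receptors are single-pass membrane proteins that are activated by ligands of the Jagged and Delta-like families on a neighbouring cell. Binding exposes the receptor to cleavage by ADAM proteases and then by the gamma-secretase complex, and the freed intracellular part enters the nucleus, joins the DNA-binding protein Rbpj and a Mastermind co-activator, and turns on genes of the Hes and Hey families. In the lung, Notch4 and Dll4 are known mainly from endothelium, Notch3 from pericytes and vascular smooth muscle, and Jag1 and Notch2 from mesenchyme and epithelium alike. Dner, a transmembrane protein with epidermal growth factor-like repeats, is best known from neurons and has been described as a Notch ligand.

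Promoters are printed for 4 members: Dner and Notch4, which had the highest and the lowest fibroblast level relative to Pu, Jag1, which had the largest difference between fibroblast types, and Dll4, as a second ligand promoter with the motif marked below. The sequences are RefSeq's, on GRCm38.p6, from 250 bases before to 50 bases after the annotated start. Of the 10 members, all but Hes1 had an entry, and Dll1 had 2 starts, giving 10 promoters of 9 genes. Lower case is plain sequence, and capitals mark matches on either strand to CACGCG, a site that Hes repressors can bind.
Dner: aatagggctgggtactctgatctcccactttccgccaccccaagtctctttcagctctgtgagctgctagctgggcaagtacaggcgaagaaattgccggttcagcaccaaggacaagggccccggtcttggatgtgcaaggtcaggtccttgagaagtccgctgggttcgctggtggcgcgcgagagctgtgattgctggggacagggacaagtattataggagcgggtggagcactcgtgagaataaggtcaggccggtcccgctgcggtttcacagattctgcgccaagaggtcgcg
Notch4: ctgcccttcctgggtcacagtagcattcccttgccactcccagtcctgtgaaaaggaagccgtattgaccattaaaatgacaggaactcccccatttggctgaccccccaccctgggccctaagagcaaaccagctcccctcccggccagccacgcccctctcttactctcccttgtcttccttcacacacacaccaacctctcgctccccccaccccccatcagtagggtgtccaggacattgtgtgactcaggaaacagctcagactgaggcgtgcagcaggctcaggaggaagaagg
Jag1: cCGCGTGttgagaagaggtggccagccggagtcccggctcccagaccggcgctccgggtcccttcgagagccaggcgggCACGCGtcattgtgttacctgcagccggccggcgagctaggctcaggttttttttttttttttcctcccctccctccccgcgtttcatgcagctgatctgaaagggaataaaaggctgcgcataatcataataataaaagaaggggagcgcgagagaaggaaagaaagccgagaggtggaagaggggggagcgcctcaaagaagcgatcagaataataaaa
Dll4: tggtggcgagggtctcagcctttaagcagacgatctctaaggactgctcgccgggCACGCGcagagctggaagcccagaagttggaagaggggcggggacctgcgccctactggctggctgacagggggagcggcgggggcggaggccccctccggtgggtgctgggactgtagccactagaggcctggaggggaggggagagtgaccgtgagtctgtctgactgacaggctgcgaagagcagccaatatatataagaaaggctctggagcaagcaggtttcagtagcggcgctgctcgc
The Dner promoter (chr1:84696172-84696471, minus strand) and the Notch4 promoter (chr17:34564045-34564344, plus strand) held no match. The Jag1 promoter (chr2:137116471-137116770, minus strand) held CACGCG at -249 and -171, and the Dll4 promoter (chr2:119325534-119325833, plus strand) at -195, counted to the first base of the match with the start as 0. CACGCG stood in 5 of the 10 member promoters and in 9.27% of all 32851 promoters in the table. It stood in 9 of the 45 promoters of the further pathway genes described below. Neither GTGGGAA, the core of the Rbpj site, nor the E-box CACGTG stood in any of these 10 promoters, while 6.38% and 7.15% of all promoters held them. The 10 promoters held from 5 CG dinucleotides (Notch4) to 63 (Jag2), against a median of 7 over the table. CACGCG itself holds CG dinucleotides, and no share among promoters of like CG content is given. Nothing is therefore read from the 5 of 10.

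On each gene's brightest probe, all 4 receptors were lower on every fibroblast array than on both Pu arrays. The margin was wide for Notch4 and Notch3 and small for Notch2. Notch4 (probe at chr17:34725120-34725179, mm9) had scaled log2 levels of -2.99 and -4.0 in A, -4.92 and -3.58 in B, -4.32 and -4.82 in C, and 1.48 and 1.43 in Pu. It was above background on 1 of 6 fibroblast arrays, the first A array. The log2 difference of fibroblasts minus Pu was -5.56 ± 0.43 (SE from the fit over all genes, 6 against 2 arrays), and Notch4 was at least 33.0-fold lower in fibroblasts, with types that were not above background set at the dimmest signal their arrays could measure. Both Pu arrays were hybridised on 1 slide and the 6 fibroblast arrays on the other, so an effect of the slide or the scan and a difference between fibroblasts and Pu cannot be told apart, here and in each comparison with Pu below. In these pooled cells, fewer cells of a type and less RNA per cell cannot be told apart either. For endothelium, the cell type Notch4 is known from, 10 of 10 listed genes were lower in fibroblasts than in Pu. All passed limma at an adjusted p under 0.05, beside 16.3% of all genes called lower. The list holds Pecam1, whose protein CD31 was used in the sort, and its part in the Notch4 difference was not tested.

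Notch3 (probe at chr17:32257848-32257907, mm9) had levels of -2.52 and -2.53 in A, -3.63 and -3.93 in B, -2.94 and -4.96 in C, and -0.67 and 0.43 in Pu. The second B and the second C array were not above background. The log2 difference of fibroblasts minus Pu was -3.30 ± 0.54, or 9.85-fold lower in fibroblasts, with 4 of 6 fibroblast arrays above background. Among the fibroblasts, both A arrays lay above the B and C arrays, by 1.25 ± 0.67 for A minus B and 1.43 ± 0.67 for A minus C. The A minus C value was 0.41 without the second C array, and C minus Pu, -3.83, was then -2.82. Without the first C array, C rests on an array at background, and the values (2.44 and -4.85) are no exact differences. The mural list, which holds pericyte and smooth muscle genes, had 8 of 10 genes on the lower side in fibroblasts, of which 4 passed the test at an adjusted p under 0.05 in limma (16.3% of all genes did), and 2 of 10 on the higher side, both of which passed (20.8% of all genes). Its part in the Notch3 difference was not tested.

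Notch1 (probe at chr2:26314630-26314689, mm9) had levels of -1.54 and -1.75 in A, -2.47 and -1.20 in B, -1.92 and -0.97 in C, and 1.55 and -0.12 in Pu, all above background. The log2 difference of fibroblasts minus Pu was -2.36 ± 0.54, 5.13-fold lower in fibroblasts. Its size rests on which Pu array is used: it was -1.53 without the first Pu array and -3.19 without the second. A second Notch1 probe (chr2:26319440-26319499, mm9) gave -2.03 ± 0.58, and the fibroblast types overlapped on both probes.

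Notch2 (probe at chr3:97953914-97953973, mm9) had levels of 4.55 and 4.77 in A, 4.59 and 4.66 in B, 4.39 and 4.63 in C, and 4.92 and 4.89 in Pu. The 3 fibroblast types overlapped and lay below both Pu arrays, and the log2 difference from Pu was -0.31 ± 0.22, with a sign that turns positive where arrays are centred on their medians or the authors' value table is used. A second Notch2 probe (chr3:97951233-97951292, mm9) gave -0.68 ± 0.30. On that probe fibroblasts and Pu overlapped, with the second C array at 0.49 and the second Pu array at 0.31. Notch2 was thus the receptor whose level in the sorted fibroblasts came closest to that in the unsorted lung.

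**Figure D2:**
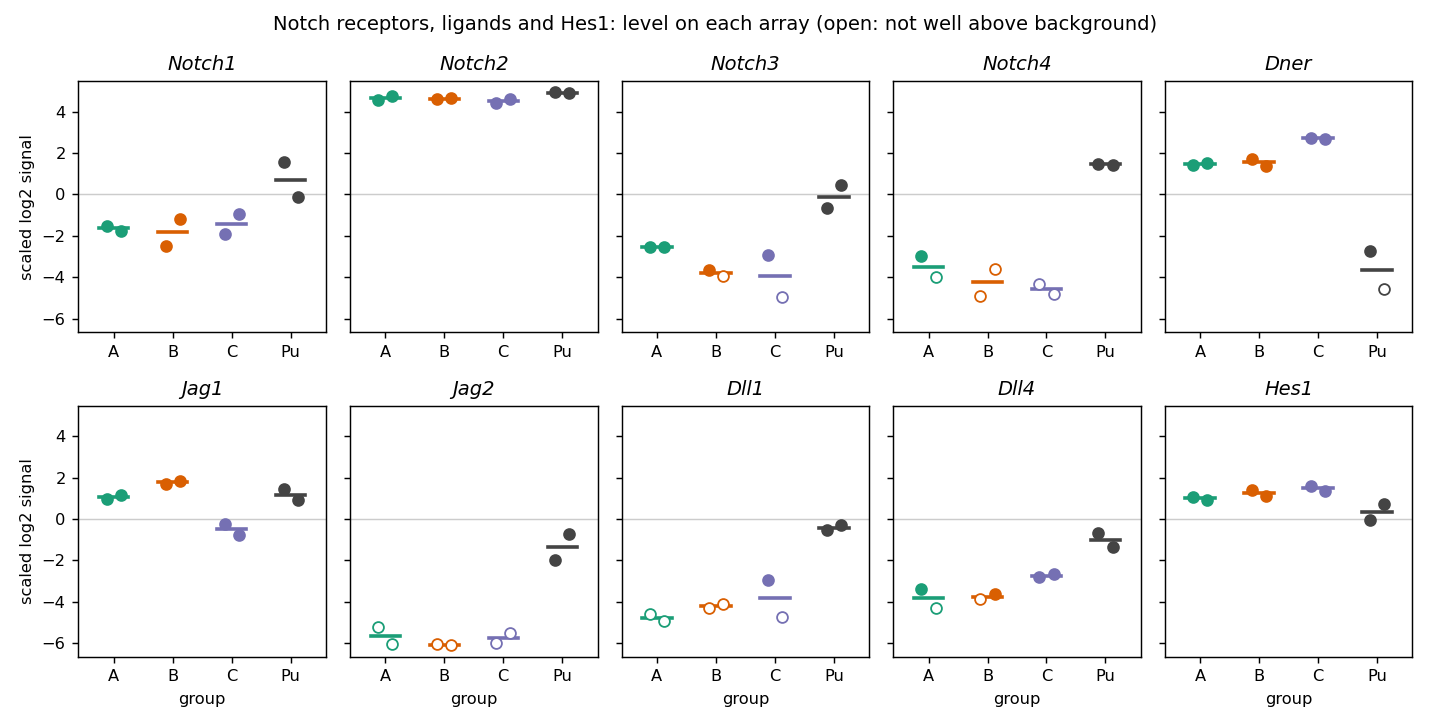
Scaled log2 signal of the 10 genes on each of the 8 arrays, with A, B and C left of Pu, bars at group means and open circles for spots not well above background. Levels are to be compared within a panel, not between genes. Dner and Hes1 are higher on all 6 fibroblast arrays than on the Pu arrays, and Notch4, Jag2 and Dll1 are mostly open circles in fibroblasts.

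Of the Jagged and Delta-like ligands, Jag1 had the largest difference between fibroblast types, B over C. Jag1 (probe at chr2:136907433-136907492, mm9), which encodes a Jagged-family ligand, had levels of 0.98 and 1.15 in A, 1.70 and 1.83 in B, -0.22 and -0.79 in C, and 1.46 and 0.90 in Pu, all above background. Its order was B, Pu, A and C, in which the B arrays lay above the Pu arrays, Pu and A overlapped, and both C arrays lay below every other array. The log2 difference was 2.27 ± 0.33 for B minus C, 1.57 ± 0.33 for A minus C and -0.70 ± 0.33 for A minus B. Against Pu it was -0.11 in A, 0.59 in B and -1.68 in C (SE 0.33 each), the last being 3.21-fold lower in C. Of these, only the C value passed the limma test at an adjusted p under 0.05. The average over the fibroblasts, -0.40 ± 0.27, covers types whose means lie on either side of Pu. The A value turns positive with median centring and in the authors' value table.

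Jag2 (probe at chr12:114146887-114146946, mm9), the other Jagged ligand, had levels of -5.24 and -6.05 in A, -6.06 and -6.11 in B, -6.01 and -5.52 in C, and -1.98 and -0.72 in Pu. None of the 6 fibroblast arrays was above background. Jag2 was therefore at least 6.07-fold lower in fibroblasts than in Pu, with a fitted log2 difference of -4.48 ± 0.40 that was -5.11 without the first Pu array and -3.85 without the second. Values among the 3 types are at background and have no order.

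Dll1 (probe at chr17:15504623-15504682, mm9, mean of 10 spots), a Delta-like ligand, had levels of -4.57 and -4.95 in A, -4.29 and -4.13 in B, -2.93 and -4.73 in C, and -0.56 and -0.29 in Pu. Among the fibroblast arrays it was above background on the first C array. Dll1 was at least 9.92-fold lower in fibroblasts than in Pu, with a fitted log2 difference of -3.85 ± 0.45. For C minus Pu the value, -3.41, was -2.51 without the second C array, and -4.31 without the first, where C rests on an array at background. A second Dll1 probe (chr17:15513726-15513785, mm9) was at background on all 6 fibroblast arrays, against -2.35 and -2.62 in Pu, with a fitted difference of -2.34 ± 0.26.

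Dll4 (probe at chr2:119160779-119160838, mm9), the Delta-like ligand of sprouting vessels, had levels of -3.37 and -4.29 in A, -3.88 and -3.64 in B, -2.81 and -2.68 in C, and -0.65 and -1.35 in Pu. The second A and the first B array were not above background. The log2 difference of fibroblasts minus Pu was -2.44 ± 0.33, 5.43-fold lower in fibroblasts. Both C arrays lay above the A and B arrays, with a difference of -1.09 ± 0.40 for A minus C and -1.02 ± 0.40 for B minus C, while A and B overlapped. The endothelial list was lower in fibroblasts as Dll4 was, and among the types its sum was 4.66 to 5.29 in A, 4.55 to 5.46 in B and 5.0 to 5.55 in C. Its part in the Dll4 differences was not tested.

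Dner and Hes1 were the members with higher levels in fibroblasts. Dner (probe at chr1:84366416-84366475, mm9) had levels of 1.41 and 1.5 in A, 1.71 and 1.39 in B, 2.72 and 2.69 in C, and -2.74 and -4.59 in Pu, where the second array was not above background. The log2 difference of fibroblasts minus Pu was 5.57 ± 0.46, 47.4-fold higher in fibroblasts, with 1 of 2 Pu arrays above background. It was 4.64 without the second Pu array, the one at background. Without the first it was 6.49, which sets fibroblasts against an array at background and is no exact difference. Within the fibroblasts C stood above A and B with no overlap, by -1.25 ± 0.56 for A minus C and -1.15 ± 0.56 for B minus C, and A and B overlapped. On these arrays the C-type samples had the highest Dner and the lowest Jag1 level of the 3 types. Neither Dner difference from C passed the limma test, and of the Jag1 differences from C only B minus C did.

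Hes1 (probe at chr16:30067820-30067879, mm9), a transcriptional repressor and classical Notch target that other pathways also induce, had levels of 1.04 and 0.94 in A, 1.39 and 1.09 in B, 1.57 and 1.37 in C, and -0.06 and 0.71 in Pu. All 6 fibroblast arrays lay above both Pu arrays. The log2 difference of fibroblasts minus Pu was 0.91 ± 0.28, 1.88-fold higher in fibroblasts. By type it was 0.67 in A, 0.91 in B and 1.15 in C (SE 0.34 each). All 10 listed early response genes were on the higher side in fibroblasts, and 8 of them passed the test at an adjusted p under 0.05 in limma, beside 20.8% of all genes. Their part in the Hes1 difference was not tested.

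At an adjusted p under 0.05 in limma, 8 of the 10 members differed between fibroblasts and Pu, 2 higher (Dner and Hes1) and 6 lower, beside 37.1% of all 17253 genes tested (20.8% higher and 16.3% lower), and nothing is read from that share because the members were chosen with this contrast known. The Hes1 call was lost without either A array, either B array, the first C array or the first Pu array, and with the 75th percentile over probes above background on every array, no filter on dim probes or array weights. The Notch1 call was lost without the first Pu array and with array weights. All 10 passed the filter on dim probes, which asked for both arrays of at least 1 group above background, and Notch4, Jag2 and Dll1 passed it through Pu alone. The median log2 difference was -2.40 over the 10 members and 0.10 over all genes. By type, 7 members differed from Pu in A (background 27.1%), 7 in B (29.5%) and 9 in C (28.9%). These comparisons share the 2 Pu arrays. With array weights, the calls of Notch1 in A, B and C, of Notch3 in A, and of Hes1, Jag1 and Dll4 in C were lost. Median centring or the authors' value table also ended those of Notch3 in A and Notch1 in C. Some were lost when 1 array was left out as well. Between A and B the test called 0 members (0.0% of all genes; at an unadjusted p under 0.05, 0 members, and 560 genes or 3.25%). Between A and C it called 0 members (0.412% of all genes; at an unadjusted p under 0.05, 2 members and 13.0% of genes), and between B and C it called 1 member, Jag1 (2.44% of all genes; at an unadjusted p under 0.05, 2 members and 15.2% of genes). The Jag1 call was lost without either A array, either B array or the second C array, with a value of 1.98 to 2.34, and when only the B and C arrays were fitted.

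**Figure D3:**
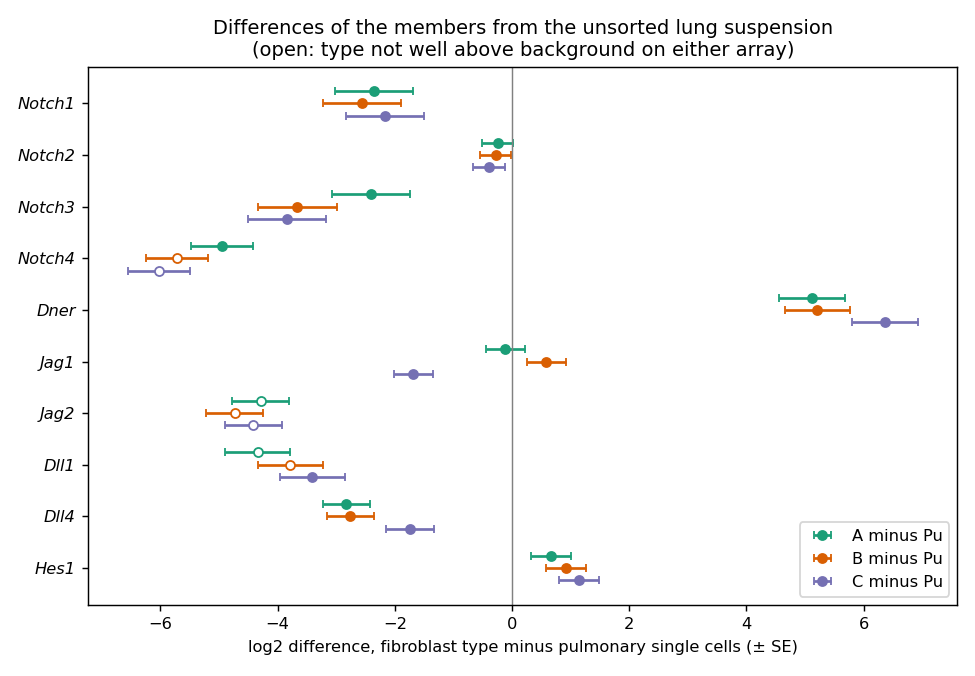
Log2 difference ± SE of each fibroblast type minus Pu for the 10 genes, with A above B above C and open circles where a type was not above background on either array. Jag1 lies on both sides of 0, at 0.59 in B and -1.68 in C, while the other genes have the same direction in A, B and C.

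How far the members differ depends on the background correction and normalization, which 1 alternative changed together. With normexp background correction, which adds a constant of 50 to every signal, followed by quantile normalization, fibroblasts minus Pu was 3.14 for Dner, -2.70 for Notch4, -1.56 for Notch1, -1.46 for Notch3, -1.26 for Dll1, -1.02 for Jag2 and -0.81 for Dll4. Each of these 7 genes kept its direction, and the folds and bounds given above hold for the scanner software's own background subtraction with scaling to the 75th percentile. Which of the 2 steps moved them was not tested. Between types, the same alternative moved Notch3 to 0.32 for A minus B and 0.19 for A minus C, and Dll4 to -0.16 for A minus C and -0.19 for B minus C.

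The genes whose level followed the members most closely over the 8 arrays were sought among the 9961 named genes whose group means spanned at least 1 log2 unit. For Dner they were Rhbdl3 (Pearson r 0.997), Ccn1 (0.995) and Apip (0.994). For Notch4 they were Clic5 (0.995), Aldh1a7 (0.993) and Dnah5 (0.993). For Jag2 they were Lcn2 (0.998), C1qc (0.996) and Gm9856 (0.996), and for Dll1 they were C5ar2 (0.988), 4930486L24Rik (0.988) and Akna (0.988). Each r is over arrays that fall into 6 fibroblast and 2 Pu arrays and is given as a description, with no test.

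The rest of the pathway was followed in 43 further genes, listed by role, of which 42 were tested and Hey2 was above background in no group. Of these, 14 differed between fibroblasts and Pu at an adjusted p under 0.05 in limma, 8 higher and 6 lower, which is 33% beside 37.1% of all genes, and their median log2 difference was 0.19 against 0.10 over all genes. The split depends on the scaling: it was 12 higher and 5 lower with median centring or the authors' value table, and 5 higher and 7 lower when the 75th percentile was taken over probes above background on every array. These scalings moved the median of all genes by 0.36, 0.36 and -0.31. With normexp and quantile normalization in place of the scanner's subtraction and the 75th percentile, Lfng was at -3.48, Nrarp at -1.92, Mfng at -1.82 and Ep300 at -0.52, Numbl at 3.12 and Dlk1 at 0.87, all with adjusted p under the threshold.

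**Figure D4:**
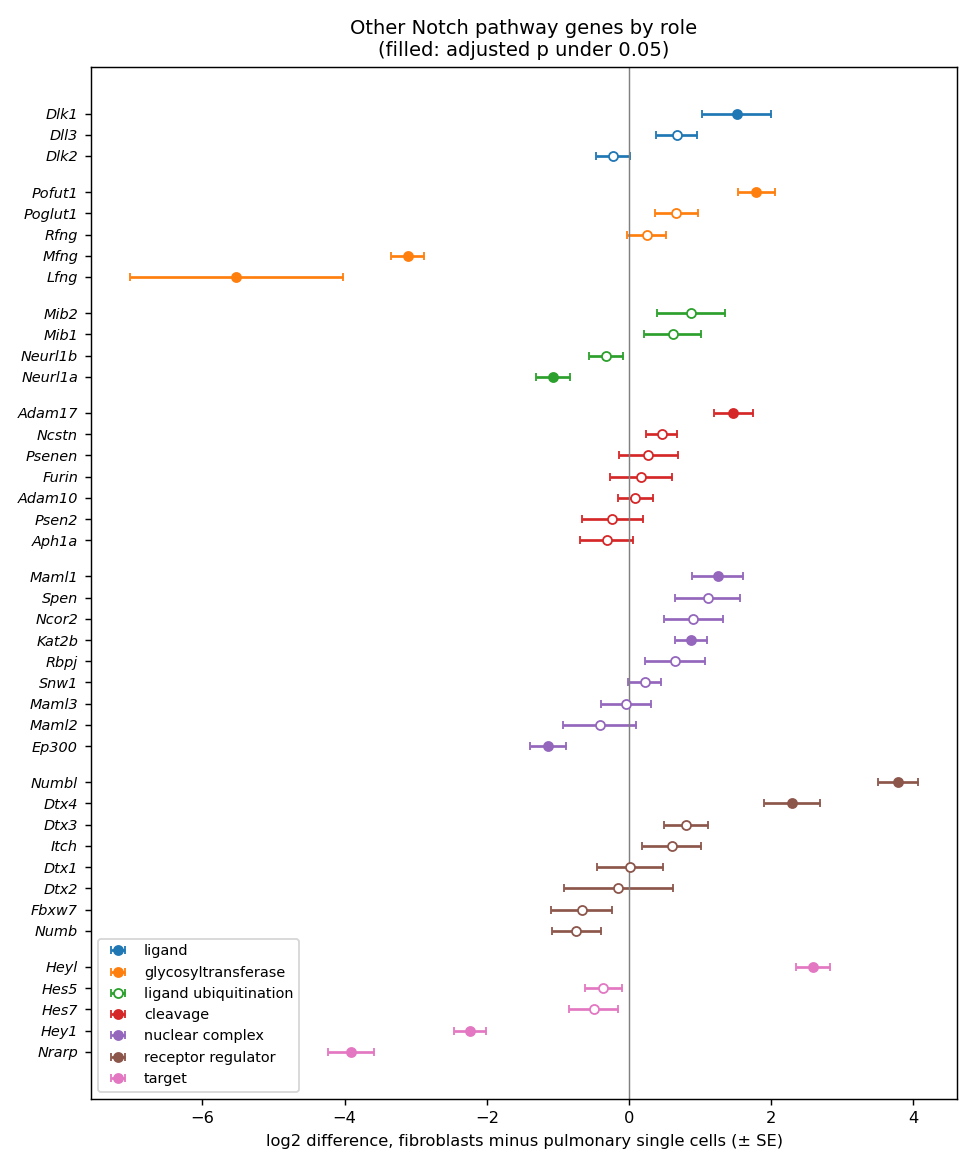
Log2 difference ± SE of fibroblasts minus Pu for the other pathway genes tested, with 1 not shown, grouped by role, with filled circles for an adjusted p under 0.05. The filled circles reach 3.79 (Numbl) on the right, and on the left -5.52 (Lfng), whose error bar is the widest.

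Among the glycosyltransferases, which add sugars to the receptor and tune its response to ligands, 1 of 5 was higher and 2 were lower. Pofut1, which adds the O-fucose, had levels of 2.74 and 3.13 in A, 2.89 and 2.61 in B, 2.21 and 2.48 in C, and 0.63 and 1.14 in Pu, and rose by 1.79 ± 0.26 (log2; limma adjusted p = 0.00203). Mfng, a Fringe enzyme that extends that fucose, had levels of -2.05 and -2.50 in A, -2.25 and -2.36 in B, -1.97 and -2.19 in C, and 0.87 and 0.91 in Pu, and fell by 3.11 ± 0.23, or 8.64-fold (adjusted p = 0.000109). Lfng, another Fringe enzyme, had levels of -5.12 and -6.07 in A, -1.62 and -1.81 in B, -5.0 and 1.72 in C, and 2.83 and 2.25 in Pu. The C arrays thus disagree by more than the types do, and both A arrays were at background. Averaged over the types, Lfng was at least 27.9-fold lower in fibroblasts (log2 difference -5.52 ± 1.5, adjusted p = 0.0261). That bound allows only for signals at background, and not for the gap between the C arrays. By type, A was at least 94.5-fold lower than Pu (adjusted p = 0.0168). B, at -4.25 against Pu, and C, at -4.18, did not pass the test (adjusted p = 0.125 and 0.132). C minus Pu was -0.82 without the first C array. Without the second it was -7.54, where C rests on an array at background and the value is no exact difference. The call of the average was lost without the second A array, either B array or either Pu array, and with array weights. The average was -4.40 without the first C array and -6.64 without the second. Its promoter held all 3 motifs searched and is shown for comparison with those of the members.
Lfng: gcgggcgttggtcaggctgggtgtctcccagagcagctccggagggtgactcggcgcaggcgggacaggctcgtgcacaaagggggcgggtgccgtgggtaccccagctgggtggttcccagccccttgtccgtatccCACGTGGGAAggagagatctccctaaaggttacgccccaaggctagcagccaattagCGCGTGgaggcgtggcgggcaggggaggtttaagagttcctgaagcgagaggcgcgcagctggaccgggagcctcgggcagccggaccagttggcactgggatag
In this sequence (chr5:140607091-140607390, plus strand, GRCm38.p6) the capitals mark CACGTG at -112 overlapping GTGGGAA at -109, and CACGCG on the minus strand at -55.

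Of the 6 further target genes, 5 were tested, with 1 higher and 2 lower in fibroblasts. Heyl, a Hey-family repressor, had levels of 2.09 and 2.24 in A, 1.72 and 1.68 in B, 3.03 and 2.63 in C, and -0.55 and -0.17 in Pu, and rose by 2.59 ± 0.24, or 6.02-fold (adjusted p = 0.000279). Hey1, its relative, had levels of 1.25 and 1.26 in A, 1.29 and 1.29 in B, 0.97 and 0.63 in C, and 3.47 and 3.23 in Pu, and fell by 2.24 ± 0.23, or 4.72-fold (adjusted p = 0.000391). The Hey genes therefore moved in opposite directions, with no overlap between fibroblast and Pu arrays in either. Nrarp, a target that feeds back on the Notch nuclear complex, had levels of -2.89 and -3.13 in A, -2.52 and -3.13 in B, -3.54 and -4.16 in C, and 1.02 and 0.34 in Pu. It was at least 13.8-fold lower in fibroblasts (log2 difference -3.91 ± 0.32, adjusted p = 0.000158), with both C arrays at background. Hey1 and Nrarp moved in the direction of the endothelial list, whose part in them was not tested.

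Among the 8 regulators of the receptor, 2 were higher and 0 lower. Numbl, a Numb-like adaptor that restrains Notch, had levels of 3.26 and 3.35 in A, 3.40 and 3.14 in B, 2.71 and 3.51 in C, and -0.66 and -0.45 in Pu, and rose by 3.79 ± 0.28, or 13.8-fold (adjusted p = 0.000102). Its close relative Numb was at -0.74 ± 0.35 and did not pass the test. Dtx4, a Deltex-family ubiquitin ligase, had levels of 4.55 and 4.76 in A, 4.46 and 4.31 in B, 3.65 and 3.91 in C, and 1.24 and 2.72 in Pu, and rose by 2.29 ± 0.39, or 4.90-fold (adjusted p = 0.00398). That value was 1.55 without the first Pu array and 3.03 without the second.

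Of the 8 cleavage genes, 1 was higher and 0 lower. Adam17, a sheddase that can cut Notch at the cell surface, had levels of 1.08 and 1.35 in A, 1.64 and 1.27 in B, 1.43 and 1.05 in C, and -0.46 and 0.13 in Pu, and rose by 1.47 ± 0.27 (adjusted p = 0.00596). Adam10, the protease usually credited with ligand-induced cleavage, and the convertase Furin did not pass the test. Of the 9 genes of the nuclear complex, 2 were higher and 1 lower. The co-activators Maml1 and Kat2b rose by 1.24 ± 0.36 (adjusted p = 0.0327) and 0.88 ± 0.23 (adjusted p = 0.0215) on average over the types. The acetyltransferase Ep300 fell by 1.14 ± 0.25 (adjusted p = 0.0121). Kat2b rose in A and B, at 1.09 and 1.43 against Pu (adjusted p = 0.0261 and 0.00864). In C it was at 0.11 (adjusted p = 0.808), and the C and Pu arrays overlapped. The Maml1 call was lost without either A array, either B array, the second C array or the first Pu array, where it was 0.62. The Kat2b call was lost without either A array, either B array or the first Pu array. Both calls were also lost with the 75th percentile over probes above background on every array and with array weights. The Maml1 call was lost with no filter on dim probes as well. The Adam17 and Ep300 calls were lost with array weights (adjusted p = 0.0562 and 0.114). Rbpj itself, at 0.65 ± 0.42, did not pass the test.

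Of the 4 ubiquitin ligase genes that act on ligands, Neurl1a fell by 1.07 ± 0.24 (adjusted p = 0.0138), and Mib1, Mib2 and Neurl1b did not pass the test. The Neurl1a value was -0.71 and missed the threshold with median centring (adjusted p = 0.0642) and in the authors' value table (adjusted p = 0.0654). Its call was also lost with array weights (adjusted p = 0.0969). Among the 3 further ligand genes, Dlk1, a Delta-like protein without the domain that activates Notch, had levels of 0.40 and 0.44 in A, -0.38 and 0.23 in B, -2.16 and -3.90 in C, and -2.82 and -2.0 in Pu. It rose by 1.51 ± 0.48 in fibroblasts on average (adjusted p = 0.0456), a call that holds A and B, at 2.83 and 2.33 against Pu (adjusted p = 0.0126 and 0.0249), and not C, at -0.62 (adjusted p = 0.47). The average's call was lost without any single A, B or Pu array. It was also lost with the 75th percentile over probes above background on every array (adjusted p = 0.0864), with no filter on dim probes (adjusted p = 0.0707) and with array weights (adjusted p = 0.179).

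Between the fibroblast types, the test called 0 of the 42 other genes in each of A minus B, A minus C and B minus C. At an unadjusted p under 0.05 there were 0, 3 and 6, beside 3.25%, 13.0% and 15.2% of all genes. The closest were Dlk1, at 3.46 ± 0.59 for A minus C (adjusted p = 0.0676) and 2.96 ± 0.59 for B minus C (adjusted p = 0.0561), and Kat2b, at 1.33 ± 0.28 for B minus C (adjusted p = 0.0624). Leaving out the first C array brought Dlk1 to 4.32 for A minus C (adjusted p = 0.0221) and 3.83 for B minus C (adjusted p = 0.0152), with C resting on its second array, which was not above background. Leaving out the second C array brought it to 2.59 (adjusted p = 0.135) and 2.09 (adjusted p = 0.13). Heyl, at -1.13 ± 0.30 for B minus C (adjusted p = 0.118), had both C arrays above the A and B arrays, as Dner did.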

How the data were processed

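Lung fibroblasts of 3 sorted types and unsorted lung cells were hybridised, 2 samples each, to 1-colour arrays. The probe intensities are the authors' scanner output, background-subtracted by Agilent Feature Extraction 10.10.1.1 per the submitters' processing notes, with mm9 probe positions per the file headers. The deposited log2 value table equals log2 of the processed intensity minus 1 constant per array (within 0.02 for 100% of 55653 probes, each column's median 4.84), and was an alternative. Any further steps are not given in the sources used here.

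Control spots and outlier flags were dropped (28 probes lost), spots of a probe averaged, and log2 intensities set relative to each array's 75th percentile. Names came from the files and RefSeq's table: 32841 probes were named (28011 by accession, 321 by another accession, 3191 by symbol, 272 by synonym, and 1046 kept the file's symbol) and 22812 were not. A gene was represented by its brightest probe by mean over all arrays, and kept if both arrays of at least 1 group were well above background, leaving 17253 genes. limma 3.58.1 in R 4.3.3 fitted 4 group means with 4 residual degrees of freedom, and p-values were adjusted by Benjamini-Hochberg over all genes at 0.05. Fibroblasts minus Pu is the mean of the 3 types minus Pu. The number of arrays limits the precision. The p-values rest on the spread between the 2 samples of a group, pooled over the 4 groups and drawn towards a value shared by all genes. They do not measure the spread within the compared groups alone. Same-numbered arrays did not deviate together (correlations of deviations -0.084 to 0.059).

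The members, gene lists and named genes were chosen with earlier results of these data known. All 10 members are described with every probe. Of the other pathway genes, those called were named, by size and at most 3 per role and comparison. Of the listed pathway genes, 1 is not reported here by itself. The fit was tested on simulated data.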

Additional observations from a re-analysis of the deposited data

Results flagged for a closer look

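Jag1 was at 0.59 ± 0.33 (log2) for B minus Pu and at -1.68 ± 0.33 for C minus Pu. Every B array lay above both Pu arrays and every C array below both, so the values had opposite signs, with a gap of 2.27 between them. The B minus Pu value did not pass the limma test at an adjusted p under 0.05, and was 0.31 to 0.87 with 1 array left out. The C minus Pu value passed, and its call was lost with array weights or only the arrays compared. The difference between these effects was not tested, since Jag1 was chosen with these values known and the comparisons share the Pu arrays.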

How the results depend on the processing

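Counts of calls are given first as reported, then under each alternative that moved them by over 1.5 times. For the other pathway genes, fibroblasts minus Pu had 14 calls, and 7 with array weights. C minus Pu had 10, and 5 with array weights or only the arrays compared. A minus C had 0, and 1 with normexp and quantile normalization or with array weights. B minus C had 0, and 3 with normexp, 2 with array weights, and 1 with probes above background on all 8 arrays or within the fibroblast slide. Of the members, 4 were above background on all 8 arrays. With that filter there were 2 calls in place of 8 for fibroblasts minus Pu, 1 in place of 7 for A and for B, and 3 in place of 9 for C minus Pu. For members, C minus Pu also had 5 calls with array weights or only the arrays compared. A minus C had 1 with normexp, and B minus C, in place of 1, had 2 with normexp, 2 within the fibroblast slide and 0 with only the arrays compared.

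Leaving out 1 array at a time gave 10 to 19 calls among the other genes for fibroblasts minus Pu, 6 to 20 for A, 5 to 19 for B and 7 to 16 for C minus Pu, 0 to 0 for A minus B, 0 to 3 for A minus C and 0 to 4 for B minus C. Members called ranged over 6 to 8, 5 to 7, 6 to 8 and 6 to 9 against Pu, and over 0 to 0, 0 to 0 and 0 to 2 between types. Lfng reversed for B minus C, at -0.07 as reported, -3.44 without the first C array (adjusted p = 0.0221) and 3.29 without the second (adjusted p = 0.049). The cause of these moves was not tested.

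With the replicate block, 13 other genes and 7 members were called for fibroblasts minus Pu; the numbers share only a label, and no count moved by over 1.5 times. In that comparison the block ended the calls of Dlk1 (adjusted p = 0.0656) and Hes1. Slide as a block could not be fitted for comparisons with Pu, and only the arrays compared is the same as the reported fit for fibroblasts minus Pu. The dim members have only bounds in fibroblasts.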
